A study of Mus musculus with 4 samples.

Results

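The EGFR-family ligands and receptors are followed here through 9 genes, taken by symbol from the expression tables: the ligand genes Btc, Hbegf, Areg, Ereg, Tgfa and Nrg1 and the receptor genes Egfr, Erbb2 and Erbb3. They are 9 of the 32285 genes in those tables. Their RNA is given by genotype in tumour nuclei, in 7 states of the tumour nuclei and in host nuclei, and their accessible regions (mm10) are given in tumour nuclei. The tumours were grafts of CT26, a mouse colon carcinoma line, placed under the skin of BALB/c mice and taken at day 14. One group, Sun1_KO, came from CT26 cells without Sun1, which encodes part of the bridge between nucleus and cytoskeleton, and the other, Sun1_WT, from CT26 cells with Sun1. The hosts of both groups are given by strain only, and the host nuclei are unedited in both. The labels used here do not say whether the knockout cells are 1 clone or whether animals were pooled. RNA and open chromatin were read from the same nuclei, and each genotype gave 1 RNA library and 1 accessibility library.

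Receptors of this family are tyrosine kinases of the cell surface that act as pairs. The ligands are made as membrane-anchored precursors and are released by surface proteases. Egfr binds betacellulin, the heparin-binding factor, amphiregulin, epiregulin and transforming growth factor alpha, whereas Erbb3 binds neuregulins and Erbb2 binds no known ligand and serves as a partner. In epithelia, including that of the colon, these ligands drive growth and repair, and several of them are themselves induced by the pathway.

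After filtering, 2172 Sun1_KO and 3345 Sun1_WT nuclei were used, and 12 barcodes occurred in both libraries. Tumour nuclei were gated on tumour markers, with at most 2 of 6 pan-leukocyte marker genes detected and no UMIs (unique molecular identifiers, counted RNA molecules) of Xist. They numbered 1217 in Sun1_KO and 2457 in Sun1_WT, with medians of 16257 and 16422 UMIs. Mitochondrial genes took 11.3% of UMIs in Sun1_KO tumour nuclei and 6.95% in Sun1_WT tumour nuclei; they are left out of the totals, and with them counted in, an alternative, the same number of members was called in each direction. Sun1 stood at 63.2 CPM (UMIs scaled to a class total of 1000000) in Sun1_KO and 105 CPM in Sun1_WT tumour nuclei, a log2 ratio of -0.73. Sun1 counts thus were lower but far from 0, and UMIs from outside the removed part of the gene, which the labels do not name, check nothing. With 1 library per genotype no test was possible, and all intervals are 95% intervals that cover counting error only. A gene with at least 100 UMIs over both libraries was called higher or lower by size, at 1.5-fold.

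In tumour nuclei the ligands did not differ in 1 direction. Btc, Hbegf and Areg were lower in Sun1_KO, Nrg1 was higher, and Ereg and Tgfa stayed within 1.5-fold. Of the receptors, Erbb2 was higher, Erbb3 was within 1.5-fold and Egfr was too rare to compare once nuclei with Xist were left out. Thus 2 of the 8 members compared were higher and 3 were lower, against 10.1% of the 12715 genes compared that were higher in Sun1_KO and 9.41% that were lower. The median log2 ratio was -0.06 over the members and 0.13 over all genes compared. Every log2 ratio between genotypes is Sun1_KO over Sun1_WT.

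**Figure D1:**
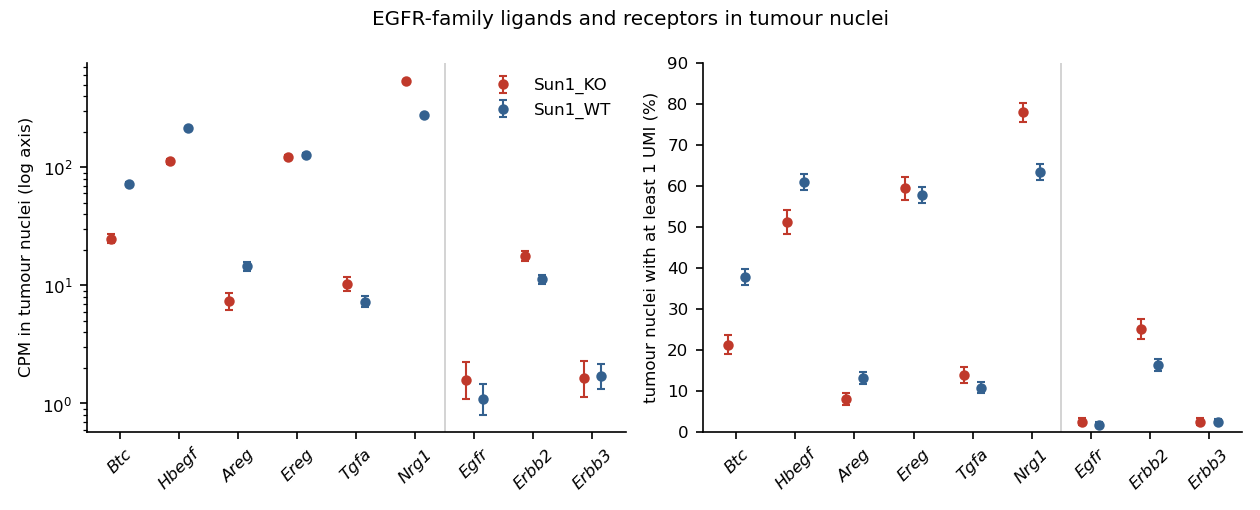
Summed level in CPM on a log axis (left) and percentage of tumour nuclei with at least 1 UMI (right) for the 6 ligands and 3 receptors, with 1 library per genotype and bars for 95% counting intervals. Btc, Hbegf and Areg lie lower and Nrg1 and Erbb2 higher in Sun1_KO by both measures, with Btc at 24.9 CPM in Sun1_KO and 72.0 CPM in Sun1_WT.

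Btc, which encodes betacellulin, a ligand of Egfr and Erbb4, showed the largest ratio of the members. It had 499 UMIs, or 24.9 CPM (22.7 to 27.2), in Sun1_KO tumour nuclei, against 3030 UMIs, or 72.0 CPM (69.4 to 74.6), in Sun1_WT tumour nuclei. The intervals did not overlap, and the log2 ratio was -1.53 (-1.67 to -1.40). At least 1 Btc UMI was seen in 21.2% of Sun1_KO and 37.7% of Sun1_WT tumour nuclei, at nearly equal depth. The 10% of nuclei with most Btc held 72.5% of its UMIs in Sun1_KO and 61.3% in Sun1_WT, with at most 10 UMIs in a Sun1_KO and 28 in a Sun1_WT nucleus.

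Hbegf, which encodes the heparin-binding ligand, in humans also the receptor of diphtheria toxin, was about as far apart as Areg but far better counted. Hbegf stood at 112 CPM (107 to 117, 2243 UMIs) in Sun1_KO and 214 CPM (210 to 218, 9006 UMIs) in Sun1_WT tumour nuclei, a log2 ratio of -0.94 (-1.0 to -0.87). Its share of nuclei with a UMI was 51.2% in Sun1_KO and 61.0% in Sun1_WT. Areg, the gene of amphiregulin, which binds Egfr alone, had 7.33 CPM (6.19 to 8.61, 147 UMIs) in Sun1_KO against 14.4 CPM (13.3 to 15.6, 608 UMIs) in Sun1_WT tumour nuclei. Its log2 ratio was -0.97 (-1.25 to -0.72), with the gene seen in 7.89% of Sun1_KO and 13.1% of Sun1_WT nuclei. Both genes were thus seen in fewer Sun1_KO nuclei, at a lower summed level.

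Ereg, which encodes epiregulin, was within 1.5-fold. It had 121 CPM (117 to 126) in Sun1_KO and 128 CPM (124 to 131) in Sun1_WT tumour nuclei, a log2 ratio of -0.07 (-0.14 to -0.01), and was seen in 59.5% and 57.8% of those nuclei. Ereg and Areg lie next to each other on chromosome 5, from 91074617 to 91093649 and from 91139599 to 91148432, and Btc lies farther along, from 91357261 to 91402994 (mm10). The genes of this cluster therefore did not share 1 genotype ratio. Tgfa, the gene of transforming growth factor alpha, had 10.3 CPM (8.92 to 11.8, 206 UMIs) in Sun1_KO and 7.29 CPM (6.50 to 8.16, 307 UMIs) in Sun1_WT tumour nuclei. Its log2 ratio of 0.49 (0.23 to 0.75) was under the 1.5-fold limit.

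Nrg1, which encodes neuregulin 1, a ligand of Erbb3 and Erbb4, was the only ligand called higher among all tumour nuclei. It had 540 CPM (529 to 550, 10823 UMIs) in Sun1_KO and 274 CPM (269 to 279, 11553 UMIs) in Sun1_WT tumour nuclei, a log2 ratio of 0.98 (0.94 to 1.01). At least 1 Nrg1 UMI was seen in 78.1% of Sun1_KO and 63.4% of Sun1_WT nuclei. The gene spans chromosome 8 from 31807452 to 32891609, and nuclear UMIs include intronic ones, so levels are not compared between a gene of this length and the shorter members.

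Among the receptors, Erbb2 had 17.7 CPM (16.0 to 19.7, 356 UMIs) in Sun1_KO and 11.2 CPM (10.2 to 12.3, 472 UMIs) in Sun1_WT tumour nuclei, a log2 ratio of 0.66 (0.46 to 0.86). It was seen in 25.1% of Sun1_KO and 16.3% of Sun1_WT nuclei. The call rested on the scaling, since the ratio was 0.46 with TMM scaling and 0.48 with median-ratio scaling, and it was 0.35 in nuclei with no pan-leukocyte UMI. Mien1, which overlaps the end of Erbb2 in the annotation, went the other way, at 9.37 CPM in Sun1_KO and 20.6 CPM in Sun1_WT (log2 ratio -1.13). Whether strand was used in the counting is unknown here, so the counts of this pair are uncertain. Erbb3, the neuregulin receptor with a weak kinase, had 1.65 CPM (33 UMIs) in Sun1_KO and 1.71 CPM (72 UMIs) in Sun1_WT, and its log2 ratio of -0.04 had an interval from -0.70 to 0.56, so at this depth a 1.5-fold lower level in Sun1_KO was not detectable.

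Egfr RNA was close to absent from tumour nuclei as gated here, with nuclei that carried Xist left out. It had 32 UMIs in 28 of 1217 Sun1_KO tumour nuclei (1.60 CPM, 1.09 to 2.25) and 46 UMIs in 42 of 2457 Sun1_WT tumour nuclei (1.09 CPM, 0.80 to 1.46). Most Egfr UMIs of nuclei with tumour markers lay in nuclei that also carried Xist, a transcript of female cells that was seen in 254 of 271 Sun1_KO and 283 of 293 Sun1_WT macrophage-like nuclei. Before such nuclei (40 of 1257 in Sun1_KO and 49 of 2506 in Sun1_WT) were left out, the gate held 137 Egfr UMIs in Sun1_KO and 108 in Sun1_WT, of which 105 and 62 were in nuclei with Xist. They were left out after the data showed that they carried most Egfr UMIs, so the low Egfr level follows in part from the gate. The log2 ratio with those nuclei kept was 1.39, against 0.55 (-0.15 to 1.23) without them. In fibroblast-like nuclei Egfr stood at 257 CPM (213 to 308, 16 of 25 nuclei) in Sun1_KO and 171 CPM (130 to 221, 11 of 20 nuclei) in Sun1_WT. Few nuclei fell in this class, and 23 of the 25 in Sun1_KO and 19 of the 20 in Sun1_WT also met the tumour marker minimum. The class held the tumour marker Hmga2 at 2239 CPM in Sun1_KO and 2186 CPM in Sun1_WT. Whether these nuclei are host cells, and what part of their RNA came from tumour cells, was not tested.

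The authors' deposited table, made from nuclei that no label used here defines, lists 7 of the 9 members, without Egfr and Erbb3. Its direction was read against the counts, so that a positive value is higher in Sun1_KO, and in the authors' deposited table the median log2 fold change of the 10156 genes is 0.59. The authors' deposited table gives Nrg1 a log2 fold change of 1.46, higher than for 99.7% of its genes. Erbb2 has 0.80, Tgfa 0.69, Ereg 0.53 and Areg 0.31 in the authors' deposited table, with a DESeq2 adjusted p of 0.243 for Areg. Btc, at -0.52, and Hbegf, at -0.35, are its lower members, and 1.12% and 1.96% of the genes of the authors' deposited table lie below them. The 7 members stood in the same order in the authors' deposited table as by their ratio in tumour nuclei, apart from Areg and Hbegf, which changed places.

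A stretch of chromosome X (windows from 5 to 25 Mb and from 35 to 45 Mb) took a low share of accessibility counts in part of the tumour nuclei of each library. Its 5 Mb windows were chosen because they were lower in Sun1_KO by over 0.3 on the log2 scale in these same nuclei. That the share was low in Sun1_KO thus follows from the choice. The share was called low under 3000 per 1000000 accessibility counts of the nucleus. It was low in 1186 of 1217 Sun1_KO tumour nuclei and in 536 of 2457 Sun1_WT tumour nuclei. Macrophage-like nuclei had such a share in 11 of 271 and 27 of 293. The Sun1_WT tumour thus held nuclei of both kinds, and the members were compared again within nuclei of low share, a choice made after seeing the data. Of the genes compared there, 11.8% were higher and 7.94% lower in Sun1_KO. Btc (log2 ratio -1.59) and Hbegf (-1.0) were as far apart as among all tumour nuclei, with Hbegf at 112 CPM in Sun1_KO and 225 CPM in Sun1_WT. Nrg1 had 536 CPM in Sun1_KO and 358 CPM in Sun1_WT nuclei of low share, and its ratio was 0.58 (0.53 to 0.64), just under the 1.5-fold limit, while Areg was at -0.51 (-0.88 to -0.12), also under it. Tgfa, at 0.71 (0.29 to 1.17), passed it on 58 UMIs in Sun1_WT, and Erbb2 was at 0.66 as before. Ereg had 122 CPM in Sun1_KO and 166 CPM in Sun1_WT nuclei of low share, a ratio of -0.44 (-0.54 to -0.35), farther from 0 than among all tumour nuclei but within 1.5-fold. Within Sun1_WT alone, nuclei of low share over those of high share had log2 ratios of 0.51 for both Nrg1 and Ereg and -0.54 for Areg, and 0.10 for Btc, 0.09 for Hbegf and 0.01 for Erbb2. Anything else that sets the tumours apart cannot be told apart from genotype with 1 library of each.

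**Figure D2:**
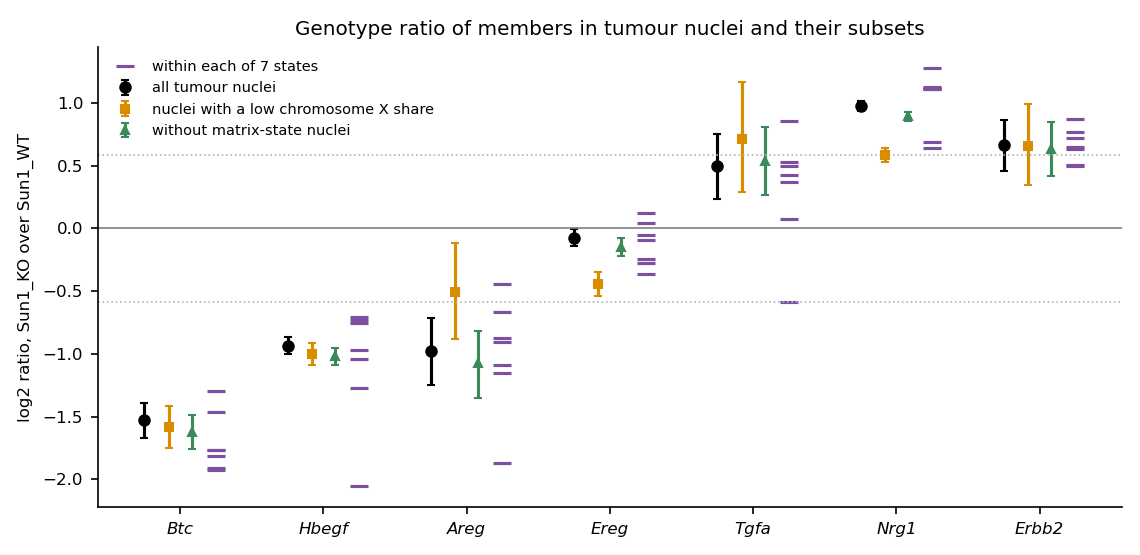
Log2 ratio of Sun1_KO over Sun1_WT for the 6 ligands and Erbb2, in all tumour nuclei, in nuclei with a low chromosome X share, without matrix-state nuclei and within each of 7 states (dashes); bars are 95% counting intervals and dotted lines mark 1.5-fold. Btc lies between -1.29 and -1.92 and Nrg1 between 0.64 and 1.28 over the states.

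For Btc, Hbegf, Areg, Ereg and Nrg1, nuclei of 1 tumour state stood farther from the other tumour nuclei of their library than the genotypes stood from each other. A state here is the top 20% of tumour nuclei with at least 3000 UMIs by the summed CPM of a gene list that holds no member, so it is a range of a score and not a cell type. The 7 lists were hypoxia, S phase, G2/M, interferon response, matrix genes with Dcn at their head, growth with ribosome biogenesis, and AP-1 with other immediate early genes. In the matrix state, which took 13.5% of Sun1_KO and 23.3% of Sun1_WT tumour nuclei, all 6 ligands in Sun1_KO and 5 of 6 in Sun1_WT were at least 1.5-fold lower than in the other tumour nuclei of the library. Of all genes compared, 18.0% in Sun1_KO and 15.5% in Sun1_WT were that much lower there. Matrix-state nuclei had medians of 11272 UMIs in Sun1_KO and 11322 in Sun1_WT, against 17049.5 and 18610.5 in the other tumour nuclei; the part of depth in these ratios was not tested.

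Hbegf in Sun1_KO had 8.31 CPM in the matrix state and 122 CPM in the other tumour nuclei, a log2 ratio of -3.83 (-4.72 to -3.15). In Sun1_WT it had 35.7 CPM in the matrix state and 247 CPM outside it, a ratio of -2.79 (-2.98 to -2.61). The size of the Hbegf ratio in Sun1_KO depended on where the state was cut, at -2.47 with the top 20% taken within each library and -5.29 (-11.2 to -3.39) with the top 10% over both, while Sun1_WT was at -2.97 and -3.31. Btc had 3.33 CPM in the state and 27.0 CPM outside it in Sun1_KO (log2 ratio -2.91) and 12.2 CPM in the state and 83.2 CPM outside it in Sun1_WT (-2.76), and with the top 20% taken within each library it was at -2.51 and -3.01, farther from 0 than Hbegf in both. Areg was at -2.03 in Sun1_KO, on 3 UMIs in the state, and at -2.66 in Sun1_WT, on 17. Ereg was lower in the state by a like amount in both libraries, at -1.88 and -1.76, and Nrg1 was at -1.10 in Sun1_KO and -1.49 in Sun1_WT. With the top 20% taken within each library Nrg1 was at -0.95 in Sun1_KO, closer to 0 than its genotype ratio. Tgfa was at -1.39 (-2.82 to -0.42) in Sun1_KO, on 7 UMIs, and at -0.27 (-0.79 to 0.20) in Sun1_WT.

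Of the receptors, Erbb2 differed little between the matrix state and the other tumour nuclei. It had 19.4 CPM in the state and 17.6 CPM outside it in Sun1_KO, and 10.7 CPM in the state and 11.3 CPM outside it in Sun1_WT. Egfr had 8 UMIs in the state and 24 outside it in Sun1_KO (4.43 and 1.32 CPM), and 14 in the state and 32 outside it in Sun1_WT (2.11 and 0.90 CPM), too few to compare. Erbb3 was also too rare there, with 2 UMIs in the state and 31 outside it in Sun1_KO and 8 and 64 in Sun1_WT. The 4 fibroblast markers outside the matrix list summed to 134 CPM in the state and 32.4 CPM outside it in Sun1_KO, and to 89.0 CPM in the state and 25.7 CPM outside it in Sun1_WT. In fibroblast-like nuclei they summed to 738 CPM in Sun1_KO and 751 CPM in Sun1_WT. All 9 fibroblast markers had a UMI in each of these groups. Of the 4 outside the matrix list, Thy1 was at 2.22 CPM in the matrix state of Sun1_KO and 1.05 CPM in that of Sun1_WT. In fibroblast-like nuclei Thy1 was at 283 and 351 CPM. Pi16 was at 1.66 and 1.21 CPM in the state, against 43.5 and 78.3 CPM, and Pdgfra at 85.9 and 71.9 CPM, against 355 and 275 CPM. Dpt was closest, at 44.3 CPM in the state against 56.6 CPM in Sun1_KO, and 14.9 against 46.4 CPM in Sun1_WT. Hmga2 was at 2913 CPM in the matrix state and 4614 CPM outside it in Sun1_KO, and at 1552 CPM in the state and 3030 CPM outside it in Sun1_WT.

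**Figure D3:**
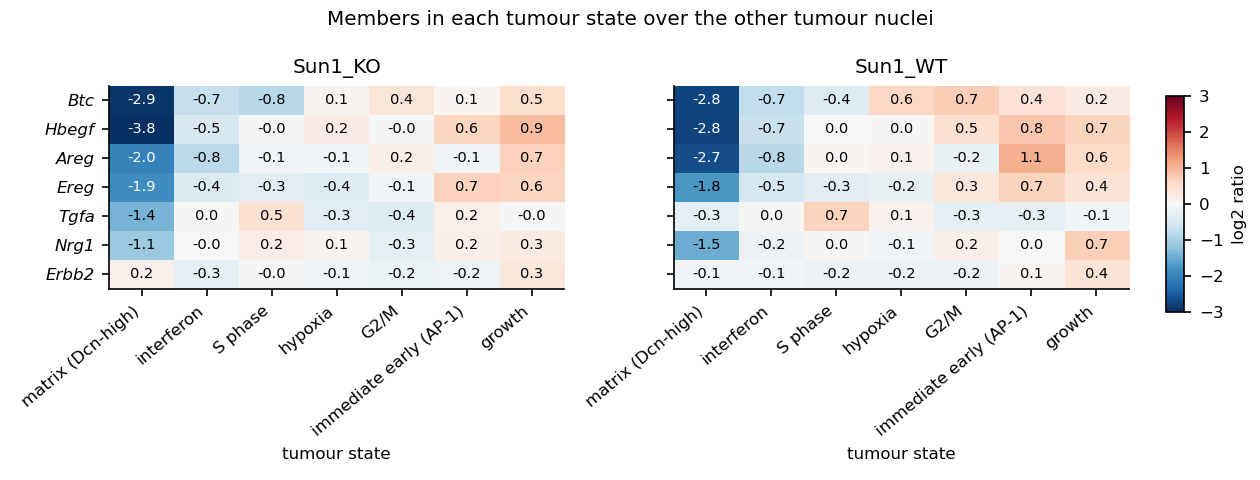
Log2 ratio of each tumour state over the other tumour nuclei of the same library for the 6 ligands and Erbb2, in Sun1_KO (left) and Sun1_WT (right), with the value in each cell. The lowest values of both libraries stand in the matrix column, down to -3.83 for Hbegf in Sun1_KO.

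In the interferon state (25.2% of Sun1_KO and 17.4% of Sun1_WT tumour nuclei) Areg and Btc were lower in both libraries. Areg was at log2 ratios of -0.80 and -0.83 in Sun1_KO and Sun1_WT, and Btc at -0.69 and -0.73, where 1.71% and 2.15% of all genes compared were at least 1.5-fold lower. Hbegf was at -0.47 in Sun1_KO and past the limit in Sun1_WT, at -0.67, a difference that was not tested. Ereg was at -0.41 (-0.56 to -0.26) in Sun1_KO and -0.52 (-0.64 to -0.40) in Sun1_WT, within 1.5-fold. Nrg1 and Tgfa were between -0.18 and 0.04 in this state. In the growth state 3 of the 6 ligands in each library were at least 1.5-fold higher. Hbegf was at 0.92 in Sun1_KO and 0.67 in Sun1_WT, and Areg at 0.68 and 0.61, where 7.05% and 5.75% of all genes compared were at least 1.5-fold higher. Ereg was at 0.64 in Sun1_KO and 0.41 in Sun1_WT in the growth state, and Nrg1 at 0.27 and 0.72, while Btc, at 0.53 and 0.24, and Tgfa, at -0.04 and -0.09, stayed within 1.5-fold. With the top 10% of nuclei in place of the top 20%, Areg (0.32 in Sun1_KO and 0.25 in Sun1_WT) and, in Sun1_WT, Hbegf (0.52) were no longer past 1.5-fold, and with the top 20% taken within each library Areg (0.53) and Ereg (0.56) were not in Sun1_KO.

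In the AP-1 state, set by immediate early genes that growth factor receptors are known to induce, Ereg had log2 ratios of 0.68 in Sun1_KO and 0.67 in Sun1_WT and Hbegf had 0.63 and 0.80, of which the Sun1_KO value was 0.45 with the top 10% of nuclei. Of all genes compared, 1.78% in Sun1_KO and 1.58% in Sun1_WT were that much higher there. Areg differed between the libraries in this state. It had 6.70 CPM in the state and 7.47 CPM outside it in Sun1_KO (log2 ratio -0.13, on 24 UMIs in the state), and 24.99 CPM in the state and 11.9 CPM outside it in Sun1_WT (1.07). S-phase nuclei had less Btc, at -0.84 in Sun1_KO and -0.39 in Sun1_WT. Tgfa was at 0.66 (0.30 to 1.00) in Sun1_WT S-phase nuclei. In Sun1_KO ones Tgfa was at 0.46 (-0.02 to 0.90, on 57 UMIs in the state), an interval that includes 0. In this state 4.35% of genes in Sun1_KO were at least 1.5-fold lower and 6.92% in Sun1_WT higher. In G2/M nuclei Btc was at 0.36 in Sun1_KO and 0.74 in Sun1_WT, and in hypoxic nuclei it was at 0.09 in Sun1_KO and 0.63 in Sun1_WT. Of all genes compared in Sun1_WT, 6.91% were at least 1.5-fold higher in G2/M nuclei and 2.59% in hypoxic ones. With the top 10% of nuclei Btc in Sun1_WT was within 1.5-fold in G2/M (0.53) and hypoxic nuclei (0.25), and in hypoxic Sun1_KO nuclei it was at -0.96 (-1.94 to -0.23), the other direction. Btc in Sun1_WT S-phase nuclei was at -1.03 with that limit. These differences between libraries were not tested.

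By their point values, the genotype ratios of Btc, Hbegf, Areg, Nrg1 and Erbb2 held their direction in every state. Over the 7 states Btc lay between -1.92 and -1.29, Hbegf between -2.06 and -0.71 and Areg between -1.87 and -0.44, with Nrg1 between 0.64 and 1.28 and Erbb2 between 0.50 and 0.87. The counting interval included 0 for Areg in the matrix state (-3.04 to 1.17, on 3 UMIs in Sun1_KO) and for Erbb2 in the AP-1 state (-0.01 to 0.98). The widest Hbegf ratio was that of the matrix state, where the level was lowest in both libraries, and the widest Areg ratio was that of the AP-1 state. Ereg lay on both sides of 0, between -0.36 and 0.13, as did Tgfa, between -0.59 in the matrix state (7 UMIs in Sun1_KO) and 0.86 in the AP-1 state. With matrix-state nuclei left out of both libraries, an alternative added after seeing the data, Btc was at -1.62, Hbegf at -1.02, Areg at -1.08 and Nrg1 at 0.89. Over the Leiden clusters of tumour nuclei with at least 50 nuclei of a library, Btc ran from 7.78 to 50.5 CPM (median 19.4, 5 clusters) in Sun1_KO and from 6.12 to 150 CPM (median 62.6, 8 clusters) in Sun1_WT, so these ranges overlapped. Nuclei of the libraries lay mostly in different clusters, and only 2 of the 11 had 50 nuclei of both. In those 2 Btc had 50.5 and 19.4 CPM in Sun1_KO against 150 and 64.6 CPM in Sun1_WT. Nrg1 ran from 131 to 669 CPM (median 598) in Sun1_KO and from 43.2 to 473 CPM (median 276) in Sun1_WT, and in the 2 shared clusters it had 638 and 131 CPM in Sun1_KO against 473 and 194 CPM in Sun1_WT, so it was higher in Sun1_KO in 1 of them.

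Genes whose level followed each member over the 14 profiles of 7 states in 2 libraries were taken from 9942 genes by Pearson correlation of log2(CPM + 1). The profiles share nuclei and hold the genotype ratio itself, so the values are a description. Btc was most like Upp1 (r = 0.985), the phosphatase gene Dusp4 (0.980) and 1700012B09Rik (0.978). Areg shared Dusp4 (0.958) and 1700012B09Rik (0.956) with it and was most like the integrin gene Itga6 (0.958). Hbegf was most like Siah2 (0.978), Psat1 (0.974) and the receptor gene Tnfrsf12a (0.973), and Ereg most like the urokinase receptor gene Plaur (0.985), Atf4 (0.975) and Actr3 (0.973). Nrg1 was most like Ubqln4 (0.974), Arap2 (0.971) and Tnk2 (0.967), Erbb2 most like Morc2a (0.958), Ppp1r9b (0.956) and Pcgf6 (0.952), and Tgfa, less closely, most like Donson (0.896), Ece1 (0.895) and Tafa1 (0.887).

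In leukocyte classes most members were rare. Counted in both libraries, 7 of the 9 members had a lower CPM in macrophage-like nuclei (271 in Sun1_KO and 293 in Sun1_WT, median 5130 and 5328 UMIs) than in tumour nuclei. Hbegf was at 5.77 CPM (8 UMIs) in Sun1_KO and 10.9 CPM (18 UMIs) in Sun1_WT macrophage-like nuclei, and Btc at 3.60 CPM (5 UMIs) and 4.23 CPM (7 UMIs). In T cell-like nuclei (110 and 72, median 3090 and 2723.5 UMIs), Hbegf was at 11.1 CPM (4 UMIs) in Sun1_KO and 13.2 CPM (3 UMIs) in Sun1_WT, so the macrophage-like level was not above that of lymphocytes. Areg had 1 UMI in Sun1_KO and 18 UMIs in Sun1_WT macrophage-like nuclei, but 13 of those 18 lay in 1 nucleus. Erbb2, Erbb3 and Tgfa had at most 6 UMIs each in macrophage-like nuclei of a library, and Egfr had 0 UMIs in Sun1_KO, which allows up to 2.16 CPM by a count of 3, and 6 in Sun1_WT.

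Nrg1 was the best counted member in macrophage-like nuclei. It had 36.0 CPM (26.8 to 47.5, 50 UMIs) in Sun1_KO and 39.3 CPM (30.3 to 50.1, 65 UMIs) in Sun1_WT macrophage-like nuclei, a log2 ratio of -0.12 (-0.69 to 0.43). In this class 5.85% of 5623 genes compared were higher and 5.07% lower in Sun1_KO. At least 1 Nrg1 UMI was in 29 of 271 Sun1_KO and 27 of 293 Sun1_WT macrophage-like nuclei, against 2 of 110 and 2 of 72 T cell-like nuclei and 2 of 62 and 1 of 84 NK cell-like nuclei (median 2523.5 and 3065.5 UMIs). T cell-like nuclei had 5.53 CPM (0.67 to 19.96) in Sun1_KO and 8.79 CPM (1.06 to 31.7) in Sun1_WT. Nrg1 was thus seen more often in macrophage-like nuclei than in lymphocyte-like ones, which were shallower, and the interval of its genotype ratio there lay below the ratio of 0.98 seen in tumour nuclei. Thinned to 1000 UMIs per nucleus, macrophage-like Nrg1 was at 61.5 CPM in Sun1_KO and 50.7 CPM in Sun1_WT, and T cell-like Nrg1 at 11.0 and 15.5 CPM. In the few monocyte-like nuclei Nrg1 had 13 UMIs in 9 of 45 nuclei in Sun1_KO and 29 UMIs in 3 of 31 nuclei in Sun1_WT, of which 24 lay in 1 nucleus.

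**Figure D4:**
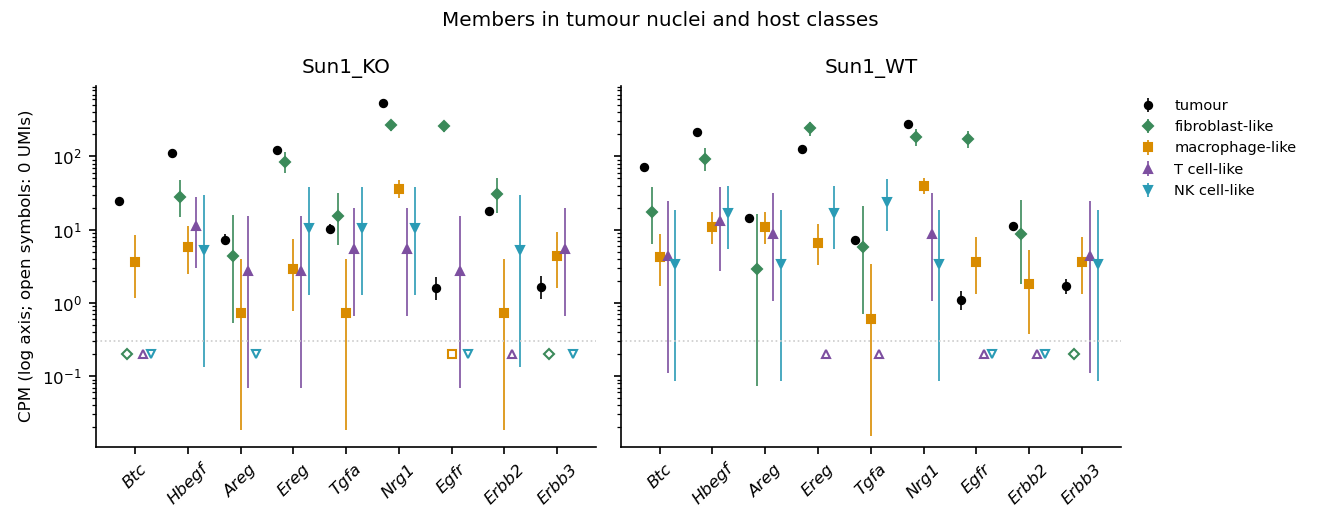
Level in CPM on a log axis of each member in tumour nuclei and in 4 other classes, in Sun1_KO (left) and Sun1_WT (right), with 95% counting intervals; open symbols stand for 0 UMIs. Most fibroblast-like nuclei also carried tumour markers. Egfr is the member that lies far higher in fibroblast-like than in tumour nuclei, at 257 CPM in Sun1_KO and 171 CPM in Sun1_WT.

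Fibroblast-like nuclei, 25 in Sun1_KO and 20 in Sun1_WT, also carried Nrg1 and Ereg. Nrg1 was at 265 CPM (122 UMIs) in Sun1_KO and 183 CPM (63 UMIs, of which 39 lay in 1 nucleus) in Sun1_WT. Ereg was at 82.7 CPM (58.5 to 113) in Sun1_KO and 241 CPM (192 to 298) in Sun1_WT, where 35 of 83 UMIs lay in 1 nucleus. Fibroblast-like nuclei of Sun1_KO thus stood below tumour nuclei for both genes, while those of Sun1_WT stood below tumour nuclei for Nrg1 and above them for Ereg. Btc, with 0 UMIs in Sun1_KO and 6 UMIs in Sun1_WT, was below its tumour level in this class in both libraries.

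Open chromatin over the members was compared in regions found in both libraries that lay in a gene or within 1 kb of it. Peaks were called by library, and 75.0% of the Sun1_KO and 75.5% of the Sun1_WT accessibility values were even numbers, so values are not single independent counts and the intervals below are too narrow even for counting error. Of 96 member regions compared, 13 were at least 1.5-fold more accessible in Sun1_KO tumour nuclei and 2 less, against 7.02% and 5.62% of all 108660 regions compared. The median log2 ratio was 0.17 over the member regions and 0.02 over all regions. Of the 13 higher regions, 10 lay over Egfr and 3 over Nrg1, the longest of the genes.

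The starts of Areg, Btc and Egfr are shown because the accessible regions over them, or the lack of one, are set against the RNA in what follows. Each line gives the 250 bases before the annotated start from RefSeq (GRCm38.p6), read in the direction of the gene, with capitals for matches to the cyclic AMP response element TGACGTCA and to the TATA box TATAAA on either strand; the AP-1 motif TGANTCA was searched as well.
Areg (chr5:91139349-91139598, plus strand): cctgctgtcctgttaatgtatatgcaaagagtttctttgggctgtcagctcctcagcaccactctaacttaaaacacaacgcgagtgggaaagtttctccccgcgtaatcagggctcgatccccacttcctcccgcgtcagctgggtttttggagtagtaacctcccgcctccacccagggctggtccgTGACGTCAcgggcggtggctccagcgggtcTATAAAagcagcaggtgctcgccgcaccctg
Btc (chr5:91402995-91403244, minus strand): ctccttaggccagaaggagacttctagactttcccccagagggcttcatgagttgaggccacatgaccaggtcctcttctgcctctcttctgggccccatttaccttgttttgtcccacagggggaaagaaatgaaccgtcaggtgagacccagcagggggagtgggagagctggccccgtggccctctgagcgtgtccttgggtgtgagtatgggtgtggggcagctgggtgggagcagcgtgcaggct
Egfr (chr11:16751953-16752202, plus strand): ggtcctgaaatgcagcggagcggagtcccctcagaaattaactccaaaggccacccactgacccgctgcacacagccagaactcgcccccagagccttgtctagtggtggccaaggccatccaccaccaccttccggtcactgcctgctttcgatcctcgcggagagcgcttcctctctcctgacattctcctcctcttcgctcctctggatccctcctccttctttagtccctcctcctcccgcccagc
The Areg window holds 1 match to TGACGTCA, which begins 61 bases before the start, and 1 to TATAAA, which begins 31 bases before it. Of all 32851 promoter windows of this length in the table, 1.55% hold the response element, 12.4% the TATA box and 6.75% the AP-1 motif. The Btc and Egfr windows hold none of these motifs, nor do those of Tgfa and Erbb2, the other 2 of the 5 members in the table. A match is a description of the letters and not a shown site.

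The lower RNA of Btc and Areg was not matched by a like loss at their starts. The region over the Areg start (chr5:91139171-91140076) had 30.1 CPM in Sun1_KO and 29.2 CPM in Sun1_WT tumour nuclei, a log2 ratio of 0.04 (-0.02 to 0.11), while RNA of Areg was at -0.97. A second Areg region, at chr5:91144800-91145713, went the other way from the RNA, with 8.83 CPM in Sun1_KO and 6.07 CPM in Sun1_WT (0.54, 0.41 to 0.66). The region over the Btc start (chr5:91402467-91403282) had 11.8 CPM in Sun1_KO and 12.8 CPM in Sun1_WT (-0.12, -0.22 to -0.02). The next region inside the gene, at chr5:91399987-91400949, had 7.52 CPM in Sun1_KO and 10.0 CPM in Sun1_WT (-0.42, -0.54 to -0.30), the lowest of the 3 over Btc. Summed over its 3 regions Btc was at -0.23 (-0.30 to -0.16), the only member whose summed accessibility was lower with an interval off 0. From 50 kb outside Ereg to 50 kb outside Btc, 37 regions had a median log2 ratio of 0.05, with 1 higher and 2 lower.

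Hbegf, at 76.2 CPM in Sun1_KO and 74.2 CPM in Sun1_WT over 3 regions, had a summed log2 accessibility ratio of 0.04 (0.00 to 0.08), against -0.94 for its RNA. Ereg was at 0.00 over 5 regions and Tgfa at 0.09 over 8. Erbb2 was at 0.07 over 2 regions, of which that over the start (chr11:98412104-98412941) had 29.0 CPM in Sun1_KO and 27.4 CPM in Sun1_WT. The other one lies in Mien1 and was open in macrophage-like nuclei as well, at 39.5 CPM in Sun1_KO and 34.3 CPM in Sun1_WT. Erbb3 was at 0.05 over 7 regions, and most of its counts (87.1 of 140 CPM in Sun1_KO and 82.7 of 135 CPM in Sun1_WT) came from chr10:128565759-128566694, which overlaps the neighbouring gene Pa2g4. For these members the ratio of open chromatin was thus under 1.5-fold in every region compared.

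Egfr stood apart in open chromatin. All 24 of its shared regions were more accessible in Sun1_KO tumour nuclei, 10 of them by at least 1.5-fold. They summed to 107 CPM in Sun1_KO and 79.1 CPM in Sun1_WT, a log2 ratio of 0.44 (0.41 to 0.48), while the 57 regions around the gene, up to 1 Mb away, were at -0.02. The largest ratio was at chr11:16808918-16809704, with 3.18 CPM in Sun1_KO and 1.35 CPM in Sun1_WT (1.24, 1.00 to 1.48), at the end of the antisense gene Egfros, and the smallest was 0.10, at chr11:16835778-16836666. The tallest region in Sun1_KO, at chr11:16897482-16898381, had 14.1 CPM in Sun1_KO and 11.3 CPM in Sun1_WT (0.33, 0.23 to 0.42). The ratio was 0.47 in nuclei with a low chromosome X share in both libraries and 0.43 with counts reduced to open or not. No region called in either library lay over the Egfr start shown above, and the first shared region began at 16765936. In macrophage-like nuclei the Egfr regions summed to 4.22 CPM in Sun1_KO and 5.48 CPM in Sun1_WT. Egfr RNA in the same tumour nuclei was 32 UMIs in Sun1_KO and 46 in Sun1_WT, and Egfros had 1 and 2 UMIs. The open regions thus stood over a gene whose RNA was hardly detected in the gated tumour nuclei of either library.

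**Figure D5:**
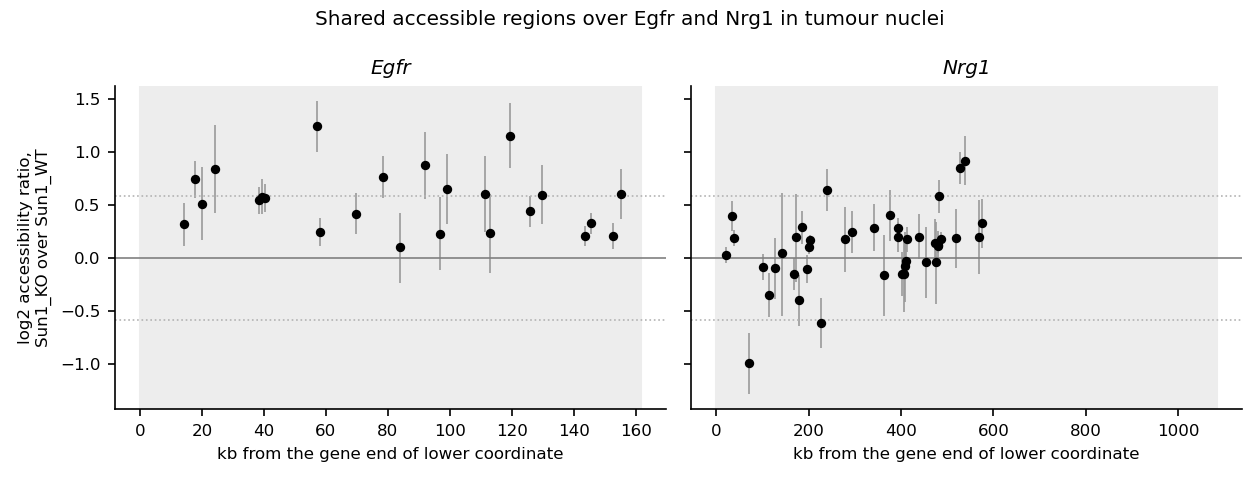
Log2 accessibility ratio of Sun1_KO over Sun1_WT in tumour nuclei for each shared region over Egfr (left) and Nrg1 (right), by distance in kb from the gene end of lower coordinate, with 95% counting intervals that are too narrow; the shaded part is the gene and dotted lines mark 1.5-fold. All 24 Egfr regions lie above 0, whereas the 42 Nrg1 regions lie on both sides.

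Over Nrg1, 42 of 60 regions were called in both libraries, 15 in Sun1_KO alone and 3 in Sun1_WT alone. The shared ones summed to 310 CPM in Sun1_KO and 281 CPM in Sun1_WT tumour nuclei, a log2 ratio of 0.14 (0.12 to 0.16), against 0.98 for the RNA. Higher by at least 1.5-fold were 3 regions, the largest at chr8:32346626-32347525 with 2.96 CPM in Sun1_KO and 1.57 CPM in Sun1_WT (0.92, 0.68 to 1.15). Lower were 2, the farthest at chr8:31878206-31879140 with 1.19 CPM in Sun1_KO and 2.36 CPM in Sun1_WT (-0.99, -1.28 to -0.71). The tallest region, at chr8:32009186-32010065, was nearly equal, at 51.7 CPM in Sun1_KO and 45.9 CPM in Sun1_WT. Macrophage-like nuclei used other regions of the gene. The region at chr8:31980581-31981494 had 19.2 CPM in Sun1_KO and 16.7 CPM in Sun1_WT macrophage-like nuclei, against 0.77 and 0.68 CPM in tumour nuclei, and that at chr8:31949614-31950524 had 15.9 and 10.0 CPM, against 0.39 and 0.38 CPM. Both regions thus had many times the CPM in macrophage-like nuclei that they had in tumour nuclei, in each library.

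The other genes of the pathway were then counted. Of a list of 92 other ligands, receptors, proteases, inhibitors, transducers and targets, 84 were compared, and 7 were higher and 3 lower in Sun1_KO tumour nuclei, 74 staying within 1.5-fold, where 10.1% of all genes compared were higher and 9.41% lower. The median log2 ratio was 0.24, against 0.13 over all genes. Among the other ligands Egf had 9.52 CPM in Sun1_KO and 5.20 CPM in Sun1_WT (log2 ratio 0.87, 0.58 to 1.16), and Erbb4, the remaining receptor, had 2.64 CPM in Sun1_KO and 1.45 CPM in Sun1_WT (0.87, 0.31 to 1.42). Of 9 genes for ligand release compared, only the rhomboid protease gene Rhbdl2 passed the limit, with 6.08 CPM (122 UMIs) in Sun1_KO and 0.83 CPM (35 UMIs) in Sun1_WT (2.86, 2.32 to 3.46). The main shedding proteases were near equal, Adam17 at 60.0 CPM in Sun1_KO and 52.9 CPM in Sun1_WT and Adam10 at 99.7 CPM in Sun1_KO and 91.8 CPM in Sun1_WT.

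Among 20 inhibitors compared, Lrig2 was higher, at 83.9 CPM in Sun1_KO and 53.3 CPM in Sun1_WT (0.65), and Dusp4, a phosphatase for MAP kinases, was lower, at 20.3 CPM in Sun1_KO and 34.8 CPM in Sun1_WT (-0.78, -0.94 to -0.62). Of 35 transducers compared, the adaptor gene Nck2 (0.92, 0.85 to 0.99) and Stat5a (1.13, 0.72 to 1.53) were higher and none was lower. Of 20 targets, the cytokine gene Lif was higher, at 12.3 CPM in Sun1_KO and 6.29 CPM in Sun1_WT (0.97). The cytokine gene Il11 was lower, at 11.5 CPM in Sun1_KO and 25.3 CPM in Sun1_WT (-1.13, -1.35 to -0.93), as was Ier3, at 25.9 CPM in Sun1_KO and 43.8 CPM in Sun1_WT (-0.76). The feedback genes Dusp6, at 156 CPM in Sun1_KO and 112 CPM in Sun1_WT, and Spry4, at 132 CPM in Sun1_KO and 103 CPM in Sun1_WT, stayed under the limit.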

How the data were processed

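RNA and accessibility were measured in the same nuclei of 1 Sun1_KO and 1 Sun1_WT tumour sample, with 35471291 and 53707675 UMIs and 183750142 and 227006096 accessibility counts in all. The authors deposited raw counts per gene and nucleus and per peak and nucleus, against mm10 per the submitters' processing notes. Those notes name Seurat, Signac, FastQC, Cell Ranger and Cell Ranger ARC, with versions not given in the sources used here. In the authors' deposited table, baseMean is a signal (a mean of scaled counts), fold changes are on the log2 scale, stat is a score and the p-values are the authors' own, by the Wald test of DESeq2.

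The members and lists were chosen with earlier results of these data known, and the thresholds of the gates were set after seeing the data. Nuclei under 500 UMIs or 300 genes or above 20% mitochondrial UMIs were removed, 232 of Sun1_KO and 110 of Sun1_WT. Tumour nuclei had UMIs of at least 3 of 12 tumour marker genes and of at most 2 of 6 pan-leukocyte marker genes, and 0 UMIs of Xist. Leukocyte classes needed at least 3 pan-leukocyte marker genes detected and fewer than 3 tumour markers. They also needed at least 3 markers of the class, more than of any other class. Fibroblast-like nuclei needed at least 5 fibroblast markers, at most 2 pan-leukocyte markers and Xist, with no limit on tumour markers. Nuclei with both tumour and pan-leukocyte markers (223 Sun1_KO and 157 Sun1_WT) were set aside as mixed, and no doublet caller was run. The "-like" names describe markers only.

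Counts were summed by class, scaled by the total without mitochondrial genes and compared as log2 ratios with a pseudocount of 0.5. Exact intervals were taken from the Poisson distribution for sums, by Clopper-Pearson for shares and from the conditional binomial for ratios. UMIs are single molecules, but nuclei of 1 tumour are not replicates. Peaks that shared 1 bp or more were joined, and barcodes carried the classes over. Named genes were the members, Sun1, pathway genes past 1.5-fold and the 3 genes most like each member with at least 500 UMIs, and named regions were the extremes and those over an annotated start. Other genes and regions named were chosen after their values were seen: Mien1, Pa2g4, Egfros, Hmga2, Thy1, Pi16, Pdgfra, Dpt, Adam10, Adam17, Dusp6, Spry4, the tallest regions of Egfr in Sun1_KO and of Nrg1 and the macrophage regions of Nrg1. RefSeq promoter windows matched 5 of the 9 members. The scripts were tested on simulated data and used Python 3.11.15, numpy 2.4.6, scipy 1.17.1, pandas 2.3.3, scanpy 1.11.5 and matplotlib 3.10.9, with TMM factors from edgeR 4.0.16 in R 4.3.3, which was used for nothing else. Alternatives were 9 planned and 3 added ones for tumour nuclei, besides others for states, host classes and regions.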

Additional observations from a re-analysis of the deposited data

How the results depend on the processing

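No paired analysis was possible because each genotype has 1 library and no replicate numbers. Under all 12 alternatives for tumour nuclei Btc (-1.73 to -1.16) and Hbegf (-1.14 to -0.73) stayed lower by over 1.5-fold, while Areg ran from -1.18 to -0.51, Nrg1 from 0.58 to 1.07 and Erbb2 from 0.19 to 0.67. The number of members higher was 1 in place of 2, Erbb2 being lost, with TMM scaling, with median-ratio scaling, after thinning to 1000 UMIs and in nuclei with no pan-leukocyte UMI. TMM and median-ratio scaling moved the median of all genes to -0.07 and -0.06, so that 22.1% and 23.8% of genes past 1.5-fold were higher, against 51.9% in the main scaling and 39.8% when mitochondrial genes counted toward the total. The pathway median was 0.036 with TMM and 0.051 with median-ratio scaling. Higher pathway genes numbered 12 without a UMI minimum and 12 in nuclei of low chromosome X share. The alternative of low share and that without matrix-state nuclei were added after seeing the data. Keeping Xist nuclei, also run as an added alternative, goes back to the tumour gate as first planned. The rule that leaves them out was itself set after seeing the data. Member regions less accessible numbered 1, not 2, with binarised values and in nuclei of low share. No member's RNA ratio past 1.5-fold, between genotypes in tumour nuclei or of a state over the other nuclei, changed sign under any alternative run. Pathway genes and single regions were only counted under the alternatives, so their signs were not checked. Of 31 values past 1.5-fold among 98 ratios of a state over the other nuclei, 29 stayed past it with the top 20% taken within each library and 25 with the top 10% over both, where 9 others passed it. Depth limits Egfr and Erbb3 in tumour nuclei and, in leukocyte classes, each member apart from Nrg1 in macrophage-like nuclei.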

Other observations

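Nuclei with both tumour and leukocyte markers, set aside above, were compared with tumour nuclei of their own library. Btc was at 20.2 CPM in the 223 Sun1_KO and 59.1 CPM in the 157 Sun1_WT nuclei of this kind, Hbegf at 99.8 and 205 CPM, Ereg at 118 and 117 CPM and Nrg1 at 535 and 257 CPM, each within 1.5-fold of the tumour level. Areg was at 4.10 CPM (2.79 to 5.82) in Sun1_KO, below its level of 7.33 CPM (6.19 to 8.61) in Sun1_KO tumour nuclei, and at 12.8 CPM (9.50 to 16.8) in Sun1_WT. Tgfa was at 10.6 CPM in Sun1_KO and 5.26 CPM (3.25 to 8.03) in Sun1_WT. Egfr was at 8.34 CPM in Sun1_KO and 12.0 CPM in Sun1_WT mixed nuclei, above its tumour level, with 28 of 48 UMIs in 1 Sun1_WT nucleus. The order of the libraries was thus the same as in tumour nuclei for Btc, Hbegf and Nrg1. Mixed nuclei met the same tumour marker minimum and came from the same libraries, so this order is not independent of that in tumour nuclei. What part of their RNA came from tumour cells was not tested.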
